A study of Bos taurus with 14 samples.

Results

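The miRNAs described here are the bovine members of the epithelial miR-200 family (bta-miR-200a, bta-miR-200b, bta-miR-200c, bta-miR-141 and bta-miR-429) together with bta-miR-205 and bta-miR-203, chosen by name and not by their values. Earlier results of these data were known when the choice was made. Of these 7 names, 6 had reads, out of 932 bovine and human miRNA names with reads in any library, and bta-miR-203 was not analysed here. Small RNA was sequenced from plasma and from buffy coat leucocytes of ruminally cannulated, non-lactating Holstein cows, the same animals being sampled while fed forage alone (FD, with 0% concentrate) and later in week 1 on high grain (HG, with 65% concentrate), a model of subacute ruminal acidosis. The 14 libraries were 4 of plasma on FD, 4 of plasma on HG (cows 1 to 4 in both), 3 of leucocytes on FD and 3 of leucocytes on HG (cows 1, 3 and 4 in both). Diet and time changed together in every cow, so the diet and the order of sampling cannot be told apart, and all cows carried a rumen cannula.

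The miR-200 family and miR-205 are characteristic of epithelial cells, such as those of skin, gut, mammary gland and airways, and they are low in most cells of the blood. They repress ZEB1 and ZEB2, transcription factors that switch off E-cadherin, and so help to keep epithelial cells from taking on a mesenchymal form. Within the family, miR-200b, miR-200c and miR-429 share a seed, the short stretch near the 5′ end that pairs with targets, and miR-200a and miR-141 share another that differs from it by a single base. miR-205 has a seed of its own.

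On the UMD3.1 bovine assembly used by the deposited library tables, the family lies in a pair of clusters, and all 6 mature miRNAs are on the minus strand. On chromosome 16, bta-miR-200b is at chr16:52522029-52522049, bta-miR-200a at chr16:52521375-52521397 and bta-miR-429 at chr16:52520140-52520161, so that the start of miR-200b and the start of miR-429 are 1889 bases apart. On chromosome 5, bta-miR-200c is at chr5:103859476-103859498 and bta-miR-141 at chr5:103859062-103859083, with 414 bases between their starts. bta-miR-205 stands alone at chr16:75799972-75799993, 23277943 bases from miR-200b. In the RefSeq annotation of a different assembly (ARS-UCD2.0), none of the 6 lies inside a protein-coding gene. There the nearest protein-coding genes on either side are TTLL10 and C16H1orf159 for the chromosome 16 cluster, PHB2 and PTPN6 for the chromosome 5 cluster, and CAMK1G and PLXNA2 for miR-205.

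The depth behind these values differed widely between sample types. Reads assigned to miRNAs ran from 376589 to 4464702 in the plasma libraries and from 21764579 to 66070770 in the leucocyte libraries, a range of 175-fold over all 14. The 6 leucocyte markers listed (bta-miR-223, both arms of miR-142, bta-miR-150, bta-miR-342 and bta-miR-155) were read in every library. They summed to between 22850 and 34074 CPM (estimated counts scaled to a library total of 1e+06) in leucocytes, and to between 16408 and 34765 CPM in plasma, so these levels overlapped. The 4 erythrocyte markers (bta-miR-451, bta-miR-144, bta-miR-486 and bta-miR-363) summed to between 183139 and 350353 CPM in the leucocyte libraries and to between 40372 and 119197 CPM in plasma. Estimated counts divide a read between the names it matches, here bta-miR-451 and hsa-miR-451a. In leucocytes of cow 4 on HG, hsa-miR-451a had 23316 reads against 7282804 for bta-miR-451. Less of miR-451 was thus divided in that library, and the erythrocyte sums are not strictly alike across libraries. Both arms of miR-126, markers of endothelium and platelets, summed to between 3173 and 7157 CPM in plasma and to between 53.7 and 245 CPM in leucocytes, and bta-miR-122, the main liver miRNA, was at 6662 to 82794 CPM and 19.4 to 89.9 CPM. All CPM values are relative to the other miRNAs of a library, and in the leucocyte libraries fewer cells of a type and less RNA per cell cannot be told apart.

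All 6 miRNAs were read in all 14 libraries, also with a minimum of 5 or 10 reads instead of 2. Their lowest read number in any library was 276, for miR-429 in cow 1 on FD in plasma and in cow 3 on HG in leucocytes. Summed over the 6, a library held between 6186 and 19351 reads. These read numbers give a read to every name it matches, and bta-miR-141 and its human homologue hsa-miR-141-3p had the same reads in 14 of 14 libraries. In the estimated counts used for CPM and for the tests, those reads were divided between both names, so the CPM of miR-141 stands for a part of its reads. The study's methods describe no removal of duplicate reads, and the Poisson intervals drawn with the read numbers cover counting error only.

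miR-205, which also acts in the basal layer of skin, was the most abundant of the 6 in every library. In plasma it had 2396, 5757, 3030 and 3077 reads in cows 1, 2, 3 and 4 on FD, and 7441, 5899, 7201 and 6796 reads on HG. In leucocytes it had 2859, 4294 and 7462 reads in cows 1, 3 and 4 on FD, and 3016, 2552 and 4722 reads on HG. The plasma libraries on HG were all above those on FD, while the read numbers of leucocytes spanned nearly the same range as those of plasma in far deeper libraries.

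miR-200a had 2104, 4152, 1757 and 1881 reads in plasma of cows 1 to 4 on FD, and 3561, 2344, 2533 and 3907 on HG. In leucocytes of cows 1, 3 and 4 it had 966, 1446 and 2523 reads on FD, and 1025, 862 and 1601 on HG. Its read numbers on the 2 diets overlapped in plasma and in leucocytes, and cow 2 on FD stood above the other plasma libraries. miR-200b, its neighbour in the chromosome 16 cluster, had 868, 626, 638 and 609 reads in plasma on FD, and 1920, 1428, 1727 and 1858 on HG. In leucocytes miR-200b had 662, 1097 and 1727 reads on FD, and 680, 563 and 1037 on HG. In plasma every HG library was thus above every FD library for miR-200b, and in leucocytes the diets overlapped.

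miR-200c ranged from 913 to 1644 reads in plasma on FD and from 2284 to 3091 on HG, and from 1449 to 3168 reads in leucocytes. miR-141, its partner on chromosome 5, ranged from 392 to 2395 reads in plasma and from 484 to 1303 in leucocytes. miR-429 was the lowest of the 6 in every library but the FD plasma of cow 2, with 276 to 1014 reads in plasma and 276 to 886 in leucocytes. In plasma, then, the unscaled reads of miR-205, miR-200b and miR-200c did not overlap between the diets, 3 of the 6, all higher on HG. The same held for 107 of the 533 names tested in plasma (20.1%), again all higher on HG, and the plasma libraries on HG gave more names with reads (504 to 538) than those on FD (410 to 454).

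**Figure D1:**
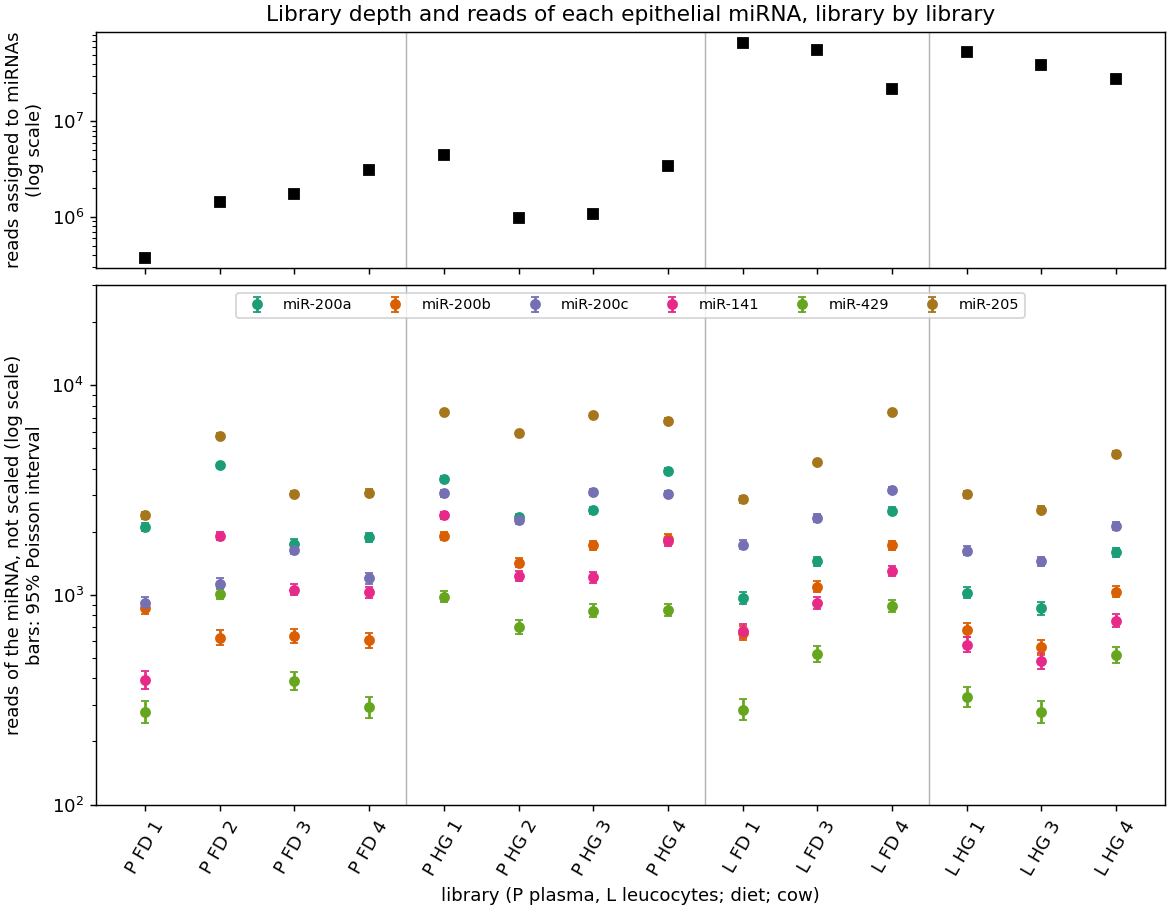
Reads assigned to all miRNAs (upper panel, log scale) and unscaled reads of each of the 6 epithelial miRNAs with 95% Poisson intervals (lower panel, log scale) in the 14 libraries, named by sample type (P plasma, L leucocytes), diet and cow. Depth ranges from 376589 to 66070770 reads, whereas miR-205 stays between 2396 and 7462 reads.

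The 6 miRNAs were among the names whose read numbers varied least over the libraries. Their highest read number exceeded the lowest by 3.11-fold for miR-205, 3.41-fold for miR-200b, 3.47-fold for miR-200c, 3.67-fold for miR-429, 4.82-fold for miR-200a and 6.11-fold for miR-141. Over the 361 names read in all 14 libraries the median of this range was 132-fold, and 6.37% of the names, 23 in all, had a range of at most 5-fold. Of those 23, 5 were members. Bovine and human names with the same reads, such as bta-miR-1 and hsa-miR-1-3p, are counted separately here. The 361 and the 23 are thus not numbers of distinct miRNAs. bta-miR-223, a myeloid miRNA, had 998 to 64791 reads in plasma and 110043 to 321372 in leucocytes, a range of 322-fold, and bta-miR-451, the main erythroid miRNA, had a range of 504-fold.

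Within leucocytes the member reads did not follow depth either. The FD library of cow 4 was the shallowest of that sample type (21764579 miRNA reads) and held the most member reads (17069), while the FD library of cow 1 was the deepest (66070770) and held 7180. In plasma the shallowest library, that of cow 1 on FD with 376589 miRNA reads, held 6949 member reads, and the deepest, that of cow 1 on HG with 4464702, held 19351. Whether reads from a source common to the libraries, such as reads passed between libraries sequenced together, are among the member reads was not tested, and this limit holds for every read number and CPM value of the members given here.

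Some other miRNAs known from tissues that are not part of blood had read numbers nearly as even as most of these. They were chosen once their values were known, as bovine names outside the family whose ratio to miR-205 varied little over the 14 libraries. bta-miR-302b, known from pluripotent stem cells, had 173 to 771 reads in plasma and 174 to 523 in leucocytes. bta-miR-124a, a miRNA of neurons, had 265 to 1226 reads in plasma and 468 to 930 in leucocytes, and bta-miR-1, a miRNA of heart and skeletal muscle, had 1723 to 8159 and 2196 to 5223. Not all miRNAs of such tissues were as even. bta-miR-122 had 1947 to 117404 reads in plasma and 991 to 1648 in leucocytes. The highest read number exceeded the lowest by 9.27-fold for bta-miR-133a and 104-fold for bta-miR-499, both also known from muscle. It did so by 15.2-fold for bta-miR-375. The smallest range of all names read in every library was 2.99-fold, for bta-miR-99b and its human homologue, and bta-miR-30a-5p was at 3.33-fold. Neither was picked for its tissue, so the examples do not describe all even names.

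**Figure D2:**
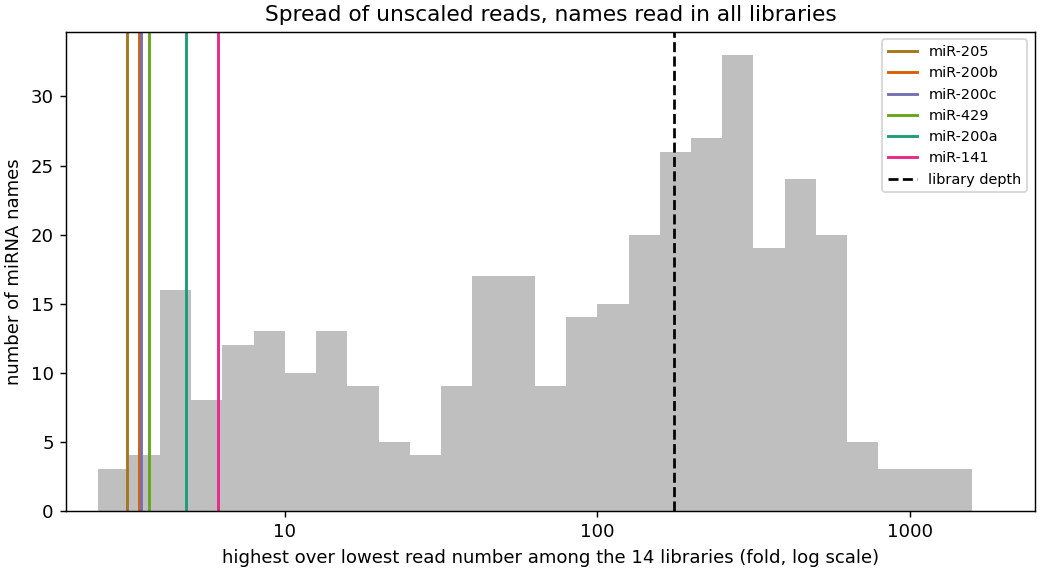
Histogram of the highest over the lowest unscaled read number among the 14 libraries (fold, log scale) for the 361 names read in all of them, with a line for each of the 6 epithelial miRNAs and a dashed line for the range of library depth. The 6 lines lie between 3.11-fold and 6.11-fold, at the left edge of the histogram, and the depth line is at 175-fold.

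On the CPM scale the 6 miRNAs were higher in plasma than in leucocytes, without overlap between any plasma and any leucocyte library. The miR-126 and miR-122 levels given above were higher in plasma in the same way, and their part in the member levels was not tested. miR-205 was at 8199, 5141, 2316 and 1349 CPM in plasma of cows 1 to 4 on FD and at 2341, 7732, 8610 and 2634 CPM on HG. In leucocytes of cows 1, 3 and 4 it was at 50.4, 89.1 and 407 CPM on FD and at 64.6, 76.2 and 201 CPM on HG. The order of the group means was the same for 5 of the 6 members, with plasma HG first, then plasma FD, leucocytes FD and leucocytes HG. miR-200a was the exception, with 3269 ± 2905 CPM (SD, n = 4) in plasma on FD and 2184 ± 1014 CPM (SD, n = 4) on HG. For all 6, the diets next to each other in this order, plasma HG with plasma FD and leucocytes FD with leucocytes HG, had a mean log2 difference in CPM between diets that was smaller than its SD over cows.

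Summed over the 6, the level was 11177 ± 8771 CPM (SD, n = 4) in plasma on FD and 12241 ± 7006 CPM (SD, n = 4) on HG, against 409 ± 424 CPM (SD, n = 3) and 256 ± 161 CPM (SD, n = 3) in leucocytes. The members thus took 2.31% of the estimated counts in the shallowest plasma library and 0.0120% in the deepest leucocyte library. The plasma libraries with the highest summed level, at 23108, 19131 and 17402 CPM, were the 3 with the fewest miRNA reads. In leucocytes the highest summed levels, 896 CPM on FD and 442 CPM on HG, were in cow 4, whose libraries were the 2 shallowest of that sample type.

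**Figure D3:**
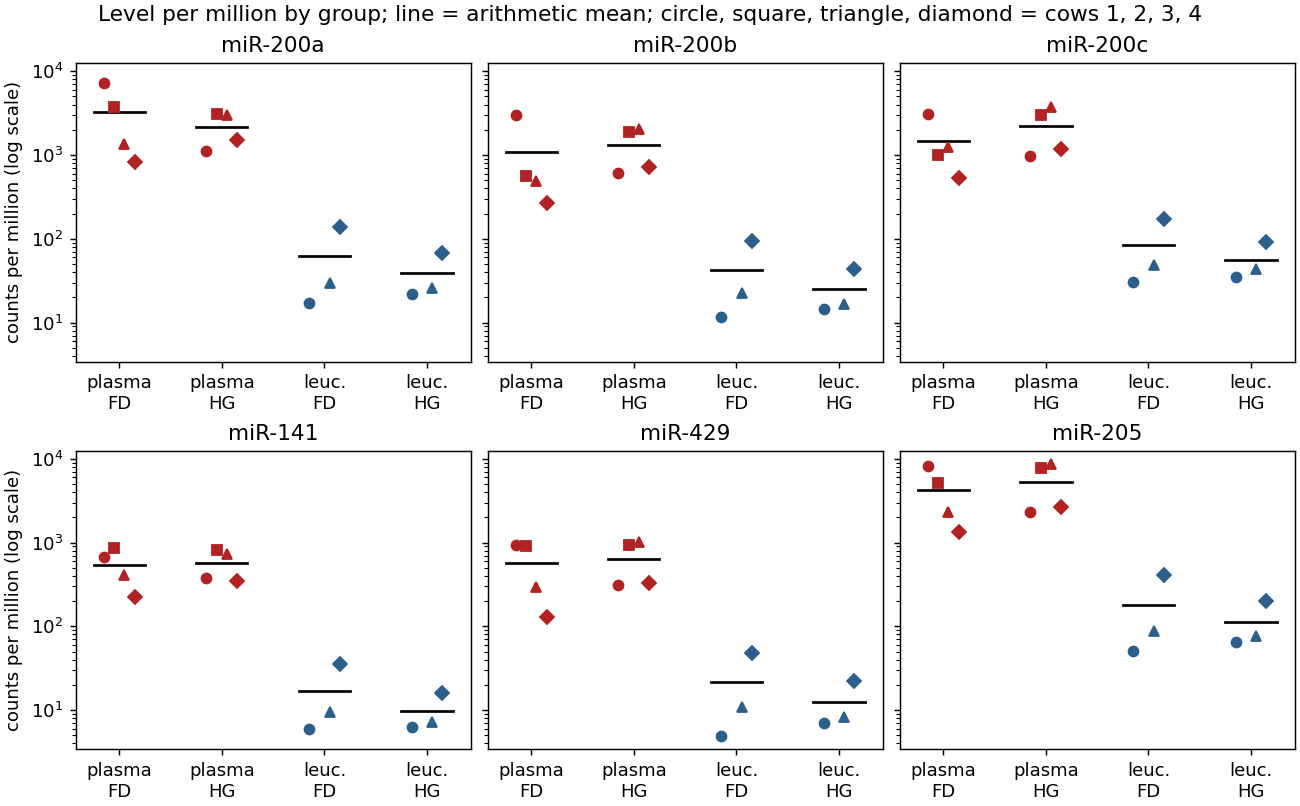
Level of each miRNA in CPM of the estimated counts (log scale) by sample type and diet, with a marker shape for each cow (circle, square, triangle and diamond for cows 1, 2, 3 and 4) and a line at the group mean. All plasma points lie above all leucocyte points, for miR-205 between 1349 and 8610 CPM against 50.4 to 407 CPM, and the diets overlap.

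The comparison of plasma with leucocytes asked which miRNAs take a larger share of the plasma libraries than of the leucocyte libraries. Blood cell markers were read in both, as given above. On FD all 6 were higher in plasma (edgeR quasi-likelihood test with TMM scaling and a term for cow, adjusted over 797 names). The log2 differences were 5.21 ± 0.92 (SE) for miR-200a, 4.37 ± 0.70 for miR-141, 4.17 ± 0.95 for miR-429, 4.09 ± 1.01 for miR-200b, 4.07 ± 0.84 for miR-205 and 3.67 ± 0.77 for miR-200c. Adjusted p-values from edgeR were between 0.00086 for miR-141 and 0.0113 for miR-200b. Of all names tested, 15.1% were called higher in plasma on FD and 19.3% lower, and the median log2 difference of all names was -1.62.

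On HG all 6 were again higher in plasma. The log2 differences were 4.59 ± 0.99 (SE) for miR-200b, 4.58 ± 0.86 for miR-200a, 4.50 ± 0.69 for miR-141, 4.32 ± 0.92 for miR-429, 4.24 ± 0.82 for miR-205 and 4.04 ± 0.77 for miR-200c, with edgeR adjusted p-values from 0.000553 to 0.00613. On this diet 16.8% of the names were called higher in plasma and 18.3% lower, with a median over all names of -0.77. The CPM ranges of all plasma and all leucocyte libraries did not overlap for 6 of the 6 members, all higher in plasma, and for 17.6% of all names in that direction.

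On FD the unscaled reads of 5 members overlapped between sample types, and those of miR-200c were lower in plasma without overlap, as were those of 68.6% of all names. On HG they did not overlap for 6 of the 6 members, all higher in plasma, as for 5.27% of the names in that direction. When the unscaled reads were tested, an alternative added after the data were seen, none of the 6 was called on either diet (edgeR, adjusted p from 0.104 to 0.983 on FD and from 0.0538 to 0.163 on HG). On FD the log2 difference in unscaled reads was then -0.63 for miR-200b, -0.89 for miR-200c, -0.47 for miR-429 and -0.54 for miR-205, below 0, and 0.51 for miR-200a and 0.02 for miR-141. On HG it was between 0.80 for miR-200c and 1.41 for miR-141. Of all 812 names in that test, 0.739% were called higher in plasma and 63.3% lower on FD, with a median log2 difference of -5.09, and 1.11% higher and 46.6% lower on HG, with a median of -3.69. Without cow 1 the call on FD was lost for miR-200b (log2 difference 1.86, adjusted p = 0.0936), miR-200c (2.02, 0.0705), miR-429 (2.26, 0.109) and miR-205 (2.23, 0.067). The part that depth has in the differences in CPM was not tested.

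**Figure D4:**
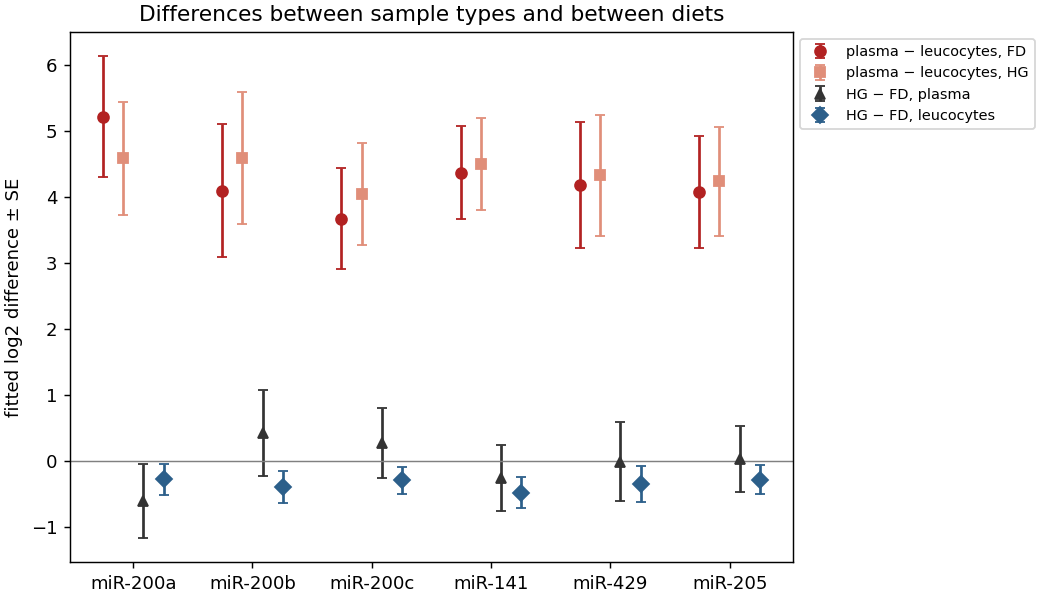
Fitted log2 differences ± SE (edgeR) of each epithelial miRNA between plasma and leucocytes on each diet, and between HG and FD in plasma and in leucocytes. The differences between sample types lie between 3.67 and 5.21, and those between diets between -0.60 and 0.42.

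The diet comparison asked which circulating miRNAs differed between forage and the first week of high grain. In plasma no member passed the test, and no name at all was called by edgeR (0 of 533, 0%). At an unadjusted p under 0.05 there were 47 names, and DESeq2 called 10, with none of the members among either tool's calls. The log2 difference between HG and FD was -0.60 for miR-200a (interval of 2 SE on either side from -1.73 to 0.52), -0.26 for miR-141 (-1.26 to 0.74) and -0.01 for miR-429 (-1.21 to 1.19). It was 0.02 for miR-205 (-0.98 to 1.02), 0.27 for miR-200c (-0.78 to 1.32) and 0.42 for miR-200b (-0.88 to 1.72). The median over all names was 0.24. With all 4 cows the 6 intervals include 0, and each reaches past a 2-fold change in at least 1 direction. Without cow 1 the difference was 1.05 ± 0.32 (SE) for miR-200b and 0.73 ± 0.28 for miR-200c, more than 2 SE above 0 and not past the test (edgeR adjusted p = 0.27 and 0.272), and it was -0.10 ± 0.36 for miR-200a. The CPM ranges of the diets overlapped for 6 of the 6 members in plasma, where they did not for 4.69% of all names, all higher on HG.

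The cows did not move together in plasma. The summed CPM in cow 1 was lower on HG by a log2 difference of -2.02, and it was higher in cow 2 by 0.52, in cow 3 by 1.65 and in cow 4 by 1.02, a mean of 0.29 ± 1.61 (SD, n = 4 cows). Cow 1 had the shallowest plasma library on FD and the deepest on HG. In unscaled reads 3 of 4 cows had the higher sum on HG, with a mean log2 difference of 0.89 ± 0.67 (SD, n = 4).

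In leucocytes the fitted differences were all below 0 and none passed the test, against 1.8% of the 779 names called. They ran from -0.28 for miR-200a to -0.48 for miR-141, with edgeR adjusted p-values from 0.396 to 0.626. The interval of 2 SE on either side excluded 0 for miR-141 (-0.96 to -0.0036, edgeR unadjusted p = 0.069). It included 0 for each of the other members. The CPM ranges of the diets overlapped for all 6, where they did not for 14.4% of the names (5.01% higher and 9.37% lower on HG). The summed level was lower on HG in cow 3 (-0.25) and cow 4 (-1.02) and higher in cow 1 (0.31), a mean log2 difference of -0.32 ± 0.67 (SD, n = 3 cows). Without cow 4 the fitted difference was above 0 for miR-200a (0.066), miR-200c (0.0053), miR-429 (0.033) and miR-205 (0.059). No member was called as differing between sample types in its response to diet by the interaction test (edgeR adjusted p = 1 for each, with 0% of 797 names called, 58 at an unadjusted p under 0.05, and 27 called by DESeq2). The intervals of 2 SE on either side were wide. The narrowest was from -1.46 to 1.72, for miR-141, and the widest from -1.84 to 2.83, for miR-200b.

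The make-up of the member reads is given by the part that each miRNA took. miR-200a made up 20.6% to 30.3% of the summed member reads in plasma on FD, 15.3% to 21.4% in plasma on HG and 13.5% to 14.9% in leucocytes. miR-200c took a smaller part in most plasma libraries than in leucocytes, with 7.75% to 19.3% in plasma on FD, 15.8% to 18.6% on HG and 18.6% to 24.2% in leucocytes. The reads of miR-200a relative to miR-200c, at 1.07 to 3.67, 0.82 to 1.29 and 0.56 to 0.80, did not overlap between plasma and leucocytes. The share of miR-205 was more even, at 34.5% to 39.5%, 37.3% to 43.4% and 39.8% to 43.9%. Shares add up to the whole, so a larger part for one member lowers the others.

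The reads of miR-200a relative to those of miR-205 were 0.878, 0.721, 0.580 and 0.611 in plasma of cows 1 to 4 on FD, and 0.479, 0.397, 0.352 and 0.575 on HG. In leucocytes this ratio was between 0.337 and 0.340 in all 6 libraries. Plasma and leucocytes did not overlap, and nor did the diets in plasma, although 0.580 and 0.575 are next to each other. It was lower on HG in 4 of 4 cows, by a mean log2 difference of -0.64 ± 0.37 (SD, n = 4). The SD of its log2 over the leucocyte libraries was 0.0046, less than the 0.047 that counting error alone gives. Depth in these libraries ranged 3.04-fold, and cows and diets differed. For the ratios of the other members to miR-205, this SD in leucocytes was above counting error. It was 0.080 against 0.055 for miR-200b, 0.201 against 0.040 for miR-200c, 0.198 against 0.059 for miR-141 and 0.106 against 0.075 for miR-429.

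miR-200a relative to miR-200b, both from the chromosome 16 cluster, was at 2.42, 6.63, 2.75 and 3.09 in plasma on FD and at 1.85, 1.64, 1.47 and 2.10 on HG, against 1.32 to 1.54 in leucocytes. This ratio was lower on HG in 4 of 4 cows as well, by a mean log2 difference of -0.97 ± 0.73 (SD, n = 4). Of the 15 ratios between members, these 2 were the ones whose plasma diets did not overlap, and they share miR-200a. They were picked out after the values were seen and carry no test.

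miR-200b relative to miR-200c, which share a seed and come from different clusters, was at 0.39 to 0.95 in plasma on FD, 0.56 to 0.63 on HG and 0.38 to 0.55 in leucocytes. miR-200b relative to miR-429, of the same seed and the same cluster, was at 0.62 to 3.14 in plasma on FD, 1.95 to 2.2 on HG and 1.95 to 2.33 in leucocytes. miR-200a relative to miR-141, the other seed group, was at 1.66 to 5.37, 1.49 to 2.17 and 1.44 to 2.12. These ranges overlapped between plasma on HG and leucocytes for miR-200b to miR-429 and for miR-200a to miR-141, and did not for miR-200b to miR-200c. The ratio of miR-429 to miR-205 was the steadiest over the 14 libraries, between 0.0946 and 0.176, with an SD of its log2 of 0.21 where the median over the names read in every library was 2.45. Outside the family the ratio to miR-205 was steadiest for bta-miR-202 (SD of 0.28) and bta-miR-302b (0.31).

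**Figure D5:**
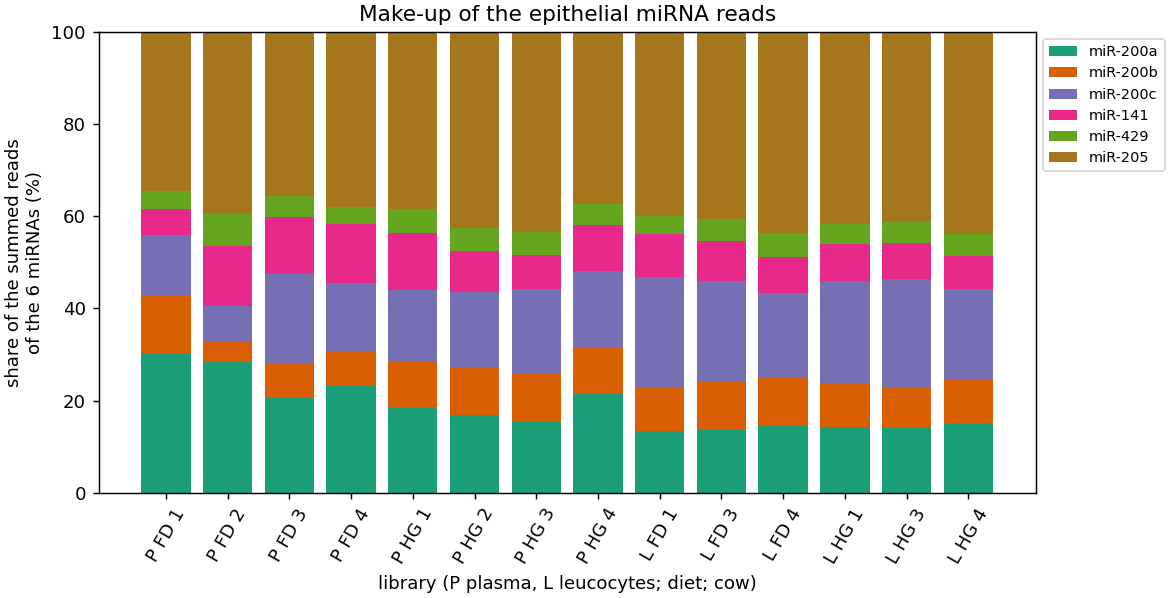
Share of each miRNA in the summed unscaled reads of the 6 (%), by library. miR-205 takes 34.5% to 43.9% throughout, and miR-200a 20.6% to 30.3% in plasma on FD, 15.3% to 21.4% in plasma on HG and 13.5% to 14.9% in leucocytes.

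The number of distinct read sequences behind a member ranged from 8 to 78 in a library. miR-205 was read as 33 to 78 distinct sequences in plasma and 31 to 61 in leucocytes, and miR-429 as 11 to 22 and 8 to 19. Other names within a 2-fold range of the member's reads in the same library served for comparison. In plasma the median number of distinct sequences was 56 for miR-205 against 38.3 for such names, and 34 for miR-200c against 21.3. It was 31 against 28.8 for miR-200a, 20.5 against 19 for miR-141 and 14 against 12.5 for miR-429, and miR-200b was below the comparison with 15 against 17.5. In leucocytes it was 42 against 50.5 for miR-205 and 35 against 37.5 for miR-200c, and all 6 members were below the comparison there.

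A further 13 miRNAs known from epithelial or glandular cells were listed beside the family. Of them, 8 were called higher in plasma than in leucocytes on FD and 8 on HG (edgeR), and none was called lower. Over all names, 15.1% were called higher and 19.3% lower on FD, and 16.8% and 18.3% on HG. The median log2 difference of the listed names was 3.58 on FD and 3.24 on HG. Uncalled values below 0 were those of bta-miR-34b (-6.12 on FD, -5.01 on HG) and bta-miR-34c (-1.10 on FD). The 4 with the highest plasma level were bta-miR-375, known from endocrine and secretory epithelium, bta-miR-31, known from keratinocytes, and bta-miR-182 and bta-miR-183, which come from a shared cluster. miR-375 had 1195 to 18143 reads in plasma and 3453 to 9665 in leucocytes, and on FD its log2 difference was 4.21 ± 0.53 (SE; edgeR adjusted p = 0.000222). miR-31 had 441 to 1416 and 2092 to 4524 reads, and its log2 difference was 1.95 ± 0.53 (adjusted p = 0.0185, edgeR). miR-182 had 105 to 742 and 189 to 394 reads, with 3.78 ± 0.67 (adjusted p = 0.00163, edgeR), and miR-183 had 54 to 469 and 75 to 197 reads, with 3.21 ± 0.98 (adjusted p = 0.029, edgeR). In the diet comparisons 0 of the 12 listed names that could be tested were called in plasma and 0 of 12 in leucocytes. The shares called over all names were 0% in plasma and 1.8% in leucocytes. Closest to the threshold in leucocytes was bta-miR-135b, with a log2 difference of -0.90 ± 0.20 (SE; edgeR adjusted p = 0.051). Its interval of 2 SE on either side, from -1.31 to -0.49, excluded 0. The study counts this miRNA among those that differed between diets in leucocytes. The interval of bta-miR-183 in leucocytes (-1.10 to -0.037) also excluded 0. Of the 12 fitted differences in leucocytes, 6 were above 0. bta-miR-34b was listed with no reads in plasma and 3 to 22 reads in leucocytes.

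The names whose CPM ran most like that of the members over libraries were found by Pearson's r of log2(CPM + 1), as a description, since all names of a library share its depth. Over the 8 plasma libraries the most like miR-200b among 250 bovine names were bta-miR-93 (r = 0.972), bta-miR-495 (0.959) and bta-miR-30a-5p (0.957), and the most like miR-205 were bta-miR-15b (0.990), bta-miR-199b (0.975) and bta-miR-219-3p (0.973). Over the 6 leucocyte libraries, among 487 names, they were bta-miR-182 (0.999), bta-miR-199a-5p (0.997) and bta-miR-145 (0.994) for miR-200b, and bta-miR-199a-5p (0.996), bta-miR-182 (0.995) and bta-miR-124a (0.995) for miR-205.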

How the data were processed

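Plasma (8 libraries) and leucocyte (6 libraries) small RNA was sequenced as single-end reads, demultiplexed with bcl2fastq 2.20 per the labels, and, per the study's methods, trimmed with Skewer and assigned by sRNAbench on UMD3.1 to miRBase names of cattle and their human homologues. The authors deposited read counts (every name that a read matches gets the whole read), numbers of distinct sequences, and expected counts, that is estimated counts in which such a read is shared out, the latter rounded here for CPM and tests. The deposited scores (scaled reads) served only to recover library reads. The authors' signal tables (normalized counts) served as an alternative scaling. The smallest listed count is 2 reads, so no limit is given for names without a row.

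Members and lists were chosen with earlier results of these data known. Members are all described. The listed epithelial miRNAs are given by counts and the 4 highest in plasma, and the most alike names by the 3 largest r, over bovine names with reads in every library of the type. bta-miR-302b, bta-miR-124a, bta-miR-202, bta-miR-1, bta-miR-99b, bta-miR-30a-5p and the ratios between members were picked after the values were seen.

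Tests used edgeR 4.0.16 in R 4.3.3 (quasi-likelihood, robust, TMM, names with at least 10 estimated counts in total, Benjamini-Hochberg over all names, threshold 0.05) with cow and diet within a sample type, and cow and group over all 14 libraries for sample types and the interaction. Cow 2 has no leucocyte library. Libraries were paired by cow as the study numbers them, and 504 of 504 plasma and 198 of 198 leucocyte values of its supplementary tables equalled the read counts under that numbering. Deviations from the diet means correlated from -0.19 to 0.126 within cows in plasma and from 0.238 to 0.319 in leucocytes. Between different cows they correlated from -0.242 to 0.292 in plasma and from -0.288 to 0.0395 in leucocytes. In plasma, libraries of the same cow were thus not more alike than those of different cows. Scripts were tested on simulated data. Alternatives were DESeq2 1.42.0, its size factors, library size alone, limma 3.58.1 (voom), undivided read counts, no filter, no block, and each cow left out. Each library is 1 sample of 1 cow, so the spread is between cows. Sequences of the miRNAs were not used here.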

Additional observations from a re-analysis of the deposited data

Results flagged for a closer look

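In groups of 4 plasma libraries, a library was picked out where its gap to the nearest other exceeded Dixon's 95% critical value of 0.829 of the group's range. Chance alone does so in about 1 of 20 groups, and 52 partly overlapping groups were examined. In the FD library of cow 1, miR-200b stood above the others with 2970 CPM, where the other 3 had 267 to 559 CPM, and also with 868 reads, where they had 609 to 638. In the same library miR-141 took 5.64% of the member reads, against 12.4% to 13.1% in the others. In the FD library of cow 2, miR-200a had 4152 reads, against 1757 to 2104, and miR-429 had 1014 reads, against 276 to 389. In the HG library of cow 2, miR-200c had 2284 reads, against 3031 to 3091.

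The other library picked out by its share was that of cow 4 on HG, where miR-429 took 4.64% of the member reads against 5.07% to 5.08%. By distinct sequences, miR-141 stood out with 20 in cow 3 on FD, against 14 to 15, and with 21 in cow 1 on HG, against 26 in the others.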

How the results depend on the processing

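The calls of the 6 members as higher in plasma held on HG under all 11 alternatives set at the start and on FD under all of them but the one without cow 1, and none held without scaling, where 520 names were called on FD in place of 274, 514 of them lower in plasma. Scaling moved the median of all names: on FD it was -1.62 with TMM, -1.91 with DESeq2 size factors, -1.03 with library size alone and 0.03 with voom, and on HG -0.77, -1.13, 0.31 and -0.10. The share of calls that were higher in plasma moved with it, from 43.8% to 32.6% with DESeq2 size factors and 62.4% with library size alone on FD, and from 47.9% to 76.0% with library size alone on HG. With each cow left out in turn the calls ranged from 106 (without cow 3) to 302 on FD, with 164 without cow 1 and 169 without cow 4, and from 158 (without cow 1 or cow 3) to 279 on HG.

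For diet, DESeq2 called 10 names in plasma and 28 in leucocytes, and 27 in the interaction, none of them a member. With DESeq2 size factors 9 leucocyte names were called in place of 14, and with each cow left out in turn from 0 (without cow 3) to 109 (without cow 4), with 9 without cow 1. Without the block for cow (no replicate block), 0 leucocyte names were called (45 at an unadjusted p under 0.05), and miR-205 in plasma was at -0.015. The block moved no other count by more than 1.5 times and no call of a member.

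The sign of several diet differences depended on the setting. In plasma miR-429 was at 0.078 with no filter and at 0.11 with undivided reads, and without scaling miR-200a was at 0.39, miR-141 at 0.71 and miR-429 at 1.02. With each cow left out in turn, the plasma differences ranged from -0.41 to 0.36 for miR-429, from -0.47 to 0.011 for miR-141, from -0.31 to 0.45 for miR-205, from -1.04 to -0.10 for miR-200a, from 0.11 to 1.05 for miR-200b and from 0.053 to 0.73 for miR-200c, with the highest value of the last 3 without cow 1. Those in leucocytes ranged from -0.56 to 0.066 for miR-200a, from -0.49 to 0.0053 for miR-200c, from -0.71 to 0.033 for miR-429 and from -0.57 to 0.059 for miR-205, each above 0 only without cow 4. In the interaction they ranged from -1.15 to 0.70 for miR-200a, which was at 0.86 without scaling, from -0.049 to 2.03 for miR-200b, from -0.24 to 0.70 for miR-141, from -0.41 to 1.33 for miR-429 and from -0.31 to 1.35 for miR-205. Between sample types on FD without scaling, miR-200b was at -0.63, miR-200c at -0.89, miR-429 at -0.47 and miR-205 at -0.54. The summed level in plasma, at a mean log2 difference between diets of 0.29, was at -0.11 with the authors' normalized values, at 1.06 without cow 1 and at -0.16 without cow 3, and in leucocytes, at -0.32, it was at -0.63 without cow 1 and at 0.030 without cow 4. The cause of these changes was not tested. Depth limits plasma most, where 1 library has 376589 miRNA reads.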
